A study of Mus musculus with 2 samples.

Results

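Edil3, Pcdh15, Gal, Sorcs1, Adarb2, Frmpd4, St18, Sh3rf3, Sema3e and Patj are 10 of the 25828 genes counted in 2 single-cell libraries of induced myogenic progenitor cells (iMPCs). They were selected on these same counts, for low summed levels in the library made with the JAK inhibitor CP relative to the library made without it. The difference between the libraries is therefore how the genes were found, and it is given here as a description only. What the choice did not use is where in each culture the genes were held, and most of the values below describe that.

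Both libraries came from mouse embryonic fibroblasts of the genotype Tg:Pax7-nGFP/C57BL6;DBA2, turned into muscle progenitors by 4 transfections with synthetic MyoD-mRNA in iMPC medium with B18R, a decoy receptor for type I interferons. The F/R/C iMPCs were made and expanded in the presence of Forskolin, RepSox and CHIR, which raise cyclic AMP, block the TGF-β receptor and activate Wnt signalling. The F/R/C+CP iMPCs, called CP iMPCs below, had the same molecules and CP. Each library was 1 clone without replicates, strained to remove myotubes, so that clone, treatment and library cannot be told apart.

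The 10 genes share no single pathway. Edil3 is a secreted matrix protein that binds integrins, Pcdh15 is a protocadherin best known from the tip links of inner ear hair cells, and Sorcs1 is a sorting receptor of the VPS10 family. Gal is the precursor of the neuropeptide galanin and Sema3e is a secreted guidance cue that acts through Plxnd1. Adarb2 is a catalytically inactive relative of the RNA-editing adenosine deaminases, and St18 is a zinc finger transcription factor of the Myt1 family. Frmpd4 is a FERM and PDZ scaffold that binds Homer and PSD-95 proteins at synapses, Sh3rf3 is a RING and SH3 scaffold linked to JNK signalling, and Patj is a multi-PDZ scaffold of the Crumbs polarity complex. In muscle lineages, Pax7 marks stem and progenitor cells, Myod1 and Myog mark commitment, and sarcomere genes mark muscle cells.

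The libraries differed in depth. After filtering, 3962 F/R/C cells had a median of 7112 unique molecular identifiers (UMIs), from 500 to 23465, and 10834 CP cells had a median of 21844, from 12097 to 113007. In all, 18 barcodes were present in both libraries, 11 of them among the kept cells. Levels are in CPM, the counts of a gene per 1e6 counts of all genes in the same cells. The median gene at 50 CPM or more in either library was lower in CP iMPCs by a log2 ratio of -0.14 (3481 genes). All levels are of summed counts and have exact 95% Poisson intervals, which cover counting error only. The study describes a correction for free RNA in the CP library. The sources used here do not say whether the deposited counts carry it, and its part in the low levels was not tested.

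Over whole libraries, 9 of the 10 genes were at least 8-fold lower in CP iMPCs, as the selection implies, and 1.49% of the 17999 genes with at least 10 counts were. Nothing is read from that count. Edil3 stood at 59.1 CPM in F/R/C iMPCs (56.3 to 62.0) and 0.660 CPM in CP iMPCs (0.567 to 0.764), which is 1.12% of the F/R/C level. St18 stood at 17.4 and 0.240 CPM, or 1.37%. Gal (75.2 and 2.93 CPM), Pcdh15 (150.9 and 4.98 CPM) and Sh3rf3 (39.6 and 1.57 CPM) kept between 3.30% and 3.96% of their F/R/C level.

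The name "nearly lost" did not hold equally for all of them. Sorcs1 kept 6.40% of its F/R/C level (138.6 and 8.87 CPM), Adarb2 7.83% (80.7 and 6.32 CPM), Frmpd4 8.94% (73.9 and 6.60 CPM) and Patj 10.1% (129.3 and 13.0 CPM). Sema3e kept 19.3%, at 189.7 CPM (184.6 to 194.8) and 36.7 CPM (35.9 to 37.4), and was present in 27.5% of CP cells. Among 6214 genes at 20 CPM or more in F/R/C iMPCs, the members other than St18, which was below that level, held places 4 to 75 from the lowest ratio, with Sema3e at 75. The rule set no threshold, so no gene stands just outside one.

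The order of the members changed when only cells of a shared depth range were compared. Cells with 12097 to 23465 UMIs, a range both libraries hold, were 190 F/R/C cells (57 of them Pax7-like) and 6213 CP cells (3555 Pax7-like), so the mix of states differed too. In these cells Sema3e kept 8.29% of its F/R/C level (log2 ratio -3.59, -3.71 to -3.47) and Patj 6.29%. Frmpd4 kept the most, 23.5% (-2.09, -2.39 to -1.78), and was the single member less than 8-fold lower. Edil3 kept 3.44%, on 68 F/R/C and 99 CP UMIs and Gal kept 3.89%. With cells of all depths from 2000 UMIs up thinned at random to 2000 UMIs, Sema3e and Frmpd4 hardly moved. Their log2 ratios were then -2.29 and -3.49, beside -2.37 and -3.48 over whole libraries.

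**Figure D1:**
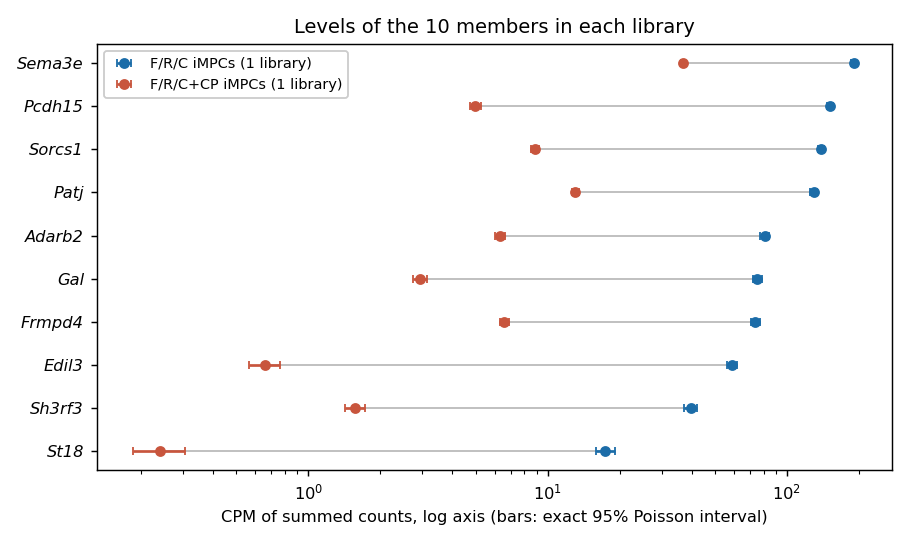
Level of each member in each library in CPM on a log axis, ordered by the F/R/C level, with exact 95% Poisson intervals as bars. Every CP point lies to the left of its F/R/C point, from Sema3e (189.7 and 36.7 CPM) to St18 (17.4 and 0.240 CPM).

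A smaller share of CP cells held a UMI of each member, and for Sorcs1 and Sema3e those that did held about as many as such F/R/C cells. Gal was found in 457 F/R/C cells (11.5%), with a mean of 4.58 UMIs per such cell, and in 231 CP cells (2.13%), with 3.45 UMIs. A single CP cell held 95 of the 796 Gal UMIs of its library. Sorcs1 was found in 1194 F/R/C cells (30.1%, a mean of 3.23 UMIs) and 711 CP cells (6.56%, a mean of 3.38 UMIs). Sema3e was found in 1602 F/R/C cells (40.4%) and 2977 CP cells (27.5%), with 3.30 and 3.34 UMIs per such cell. Pcdh15 differed in both respects, with a mean of 3.74 UMIs in 1123 F/R/C cells and 1.34 in 1011 CP cells. These numbers are not corrected for the deeper CP cells.

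With each cell thinned to 2000 UMIs, which kept 3584 F/R/C and all 10834 CP cells, shares could be set side by side. Edil3 was then found in 8.87% of F/R/C cells (exact 95% Clopper-Pearson interval 7.96 to 9.85) against 0.111% of CP cells (0.0573 to 0.193). Pcdh15 was found in 16.5% and 0.960%, Gal in 6.70% and 0.332%, Adarb2 in 11.7% and 1.14%, and Patj in 19.2% and 2.08%. Sema3e was found in 21.6% (20.3 to 23.0) and 5.69% (5.26 to 6.14). The order of the libraries was the same in thinned and summed values for each of the 10 genes. No cell state of these cultures is known to lack the members, so no share could be set against one that stands for free RNA alone, and low CP shares are not read as expression.

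Promoters were read for the members with an entry in the RefSeq table of build GRCm38.p6, which are 8 of the 10 with 12 start sites. Each window runs from 250 bases before to 50 bases after the start. They were searched on both strands for TTCNNNGAA, a STAT site, because CP blocks the kinases that activate STAT proteins, and for TGANTCA, an AP-1 site. One of the 12 windows held the STAT letters and one held the AP-1 letters, against 8.30% and 7.81% of the 32851 windows in the table. The STAT match of Sema3e began at base 42 after the start and the AP-1 match of Patj began at base -106. The 2 windows with a match are printed first, with the match in capitals, then that of Gal, whose product is a secreted peptide as Sema3e's is, and that of Sorcs1, which held 50 CG pairs against a median of 7 in the table.
Sema3e (chr5:14025026-14025325, + strand): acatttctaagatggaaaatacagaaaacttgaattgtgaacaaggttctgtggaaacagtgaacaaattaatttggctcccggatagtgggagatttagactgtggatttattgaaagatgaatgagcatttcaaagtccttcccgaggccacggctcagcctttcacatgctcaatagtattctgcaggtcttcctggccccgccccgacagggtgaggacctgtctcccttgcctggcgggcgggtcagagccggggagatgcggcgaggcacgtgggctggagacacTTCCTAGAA
Patj (chr4:98410777-98411076, + strand): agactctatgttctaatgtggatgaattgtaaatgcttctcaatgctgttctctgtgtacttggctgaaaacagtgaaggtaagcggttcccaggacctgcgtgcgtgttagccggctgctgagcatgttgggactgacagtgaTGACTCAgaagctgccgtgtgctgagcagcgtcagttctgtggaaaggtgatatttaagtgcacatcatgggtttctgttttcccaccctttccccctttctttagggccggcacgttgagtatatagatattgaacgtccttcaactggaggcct
Gal (chr19:3414495-3414794, - strand): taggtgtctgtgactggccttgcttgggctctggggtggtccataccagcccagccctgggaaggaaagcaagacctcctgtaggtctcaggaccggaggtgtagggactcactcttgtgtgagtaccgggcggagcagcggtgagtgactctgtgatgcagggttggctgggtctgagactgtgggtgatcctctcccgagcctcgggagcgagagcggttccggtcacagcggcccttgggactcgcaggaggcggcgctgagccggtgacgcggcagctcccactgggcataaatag
Sorcs1 (chr19:50678597-50678896, - strand): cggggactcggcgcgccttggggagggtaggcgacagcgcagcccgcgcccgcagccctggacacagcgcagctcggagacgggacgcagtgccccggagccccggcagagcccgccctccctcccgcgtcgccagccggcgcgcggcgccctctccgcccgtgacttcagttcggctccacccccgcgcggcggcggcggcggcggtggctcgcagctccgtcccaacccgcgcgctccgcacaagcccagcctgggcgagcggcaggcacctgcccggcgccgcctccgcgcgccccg

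Each library was clustered separately and clusters were numbered by size. In F/R/C iMPCs, clusters 0, 2 and 3 were Pax7-like (2143 cells), cluster 1 was committed-like (692) and cluster 4 was muscle-like (423). Cluster 2 was the cycling Pax7-like cluster and cluster 3 had little Cdkn1c, a cyclin-dependent kinase inhibitor, at 64.7 CPM against 2917 and 3048 CPM in the others. Cluster 5 (287 cells) was led by the collagen genes Col5a2 and Col3a1 and the matrix gene Mgp, held Pax7 at 261.1 CPM, and stayed unnamed. Clusters 6 to 9 (68 to 179 cells) had median depths of 566 to 2013 UMIs and stayed unnamed. Cluster 9 was led by Pkhd1 and Mybpc1, with Dmd among its leading genes.

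In CP iMPCs, clusters 0 and 1 were Pax7-like (5268 cells, cluster 1 cycling), clusters 2 and 6 committed-like (2136), clusters 3, 5 and 8 muscle-like (2024) and cluster 9 melanocyte-like (59). Cluster 4 (1223 cells) was led by Spp1, the secreted matrix protein osteopontin, held Pax7 at 238.3 CPM and Myh11, a myosin gene of smooth muscle, at 136.2 CPM, and stayed unnamed. Cluster 7 (124 cells), led by Pkhd1 and Dmd, also stayed unnamed. Pkhd1, Dmd and Mybpc1 were among the leading genes of both this cluster and F/R/C cluster 9. Markers of other cell types were checked in whole libraries. The 10 connective markers summed to 215.5 CPM in F/R/C iMPCs against 113.2 CPM in CP iMPCs and were highest in F/R/C cluster 5 and CP cluster 4. The 9 pericyte or smooth muscle markers summed to 477.1 and 768.0 CPM, with 2405 CPM in CP cluster 4. Lists for melanocyte, Schwann or neural, endothelial, immune, adipocyte, epithelial and cartilage cells summed to at most 65.8 CPM in either library.

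All 10 members were among the variable genes that set the F/R/C clusters, and 8 were in CP iMPCs, where Pcdh15 and St18 were not. Pcdh15, Edil3 and Adarb2 were among the 10 leading genes of F/R/C cluster 0, so their level there helped define it and is no finding on its own. With the members left out of the clustering, Pax7-like F/R/C cells held 74.3% of the summed member counts, against 75.0% with them.

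In F/R/C iMPCs most member counts lay in the Pax7-like state. These cells held 75.0% of all member counts and 57.0% of all UMIs, so a gene spread evenly would also have its largest part there. Their part was above 80% for 7 genes, Adarb2, Sh3rf3, Pcdh15, Gal, Frmpd4, Edil3 and Sorcs1, and was 57.2% for Sema3e, 49.9% for Patj and 31.5% for St18. By CPM, 4 of the 10 genes were highest in Pax7-like cells, 3 in cluster 9, 2 in the collagen-led cluster and 1 in committed-like cells. The summed level of the 10 genes was 1254 CPM in Pax7-like cells, 764.1 in the collagen-led cluster, 597.8 in committed-like and 438.2 in muscle-like cells. Cluster 9, with 68 shallow cells, stood at 1425 CPM, the highest of this library, through Sorcs1, Sema3e and Patj. In CP iMPCs the same sum was 39.5 CPM in Pax7-like cells, 85.0 in committed-like, 108.6 in muscle-like, 111.9 in melanocyte-like, 167.6 in the Spp1-led cluster and 261.9 in cluster 7, the highest of this library. By this sum, the order of Pax7-like and muscle-like cells was thus opposite in the 2 libraries. By gene, it was opposite for Gal, Sorcs1 and Patj, with the Spp1-led cluster left out of the Pax7-like state. That cluster held Pax7 at 238.3 CPM, with Sorcs1 at 71.6 and Gal at 13.6 CPM, above the muscle-like 3.94 and 3.59 CPM. For these 2 genes its order to muscle-like cells was thus that of F/R/C iMPCs. Patj was at 5.6 CPM there, below the muscle-like 22.3 CPM. Pcdh15, Adarb2 and Frmpd4 were higher in Pax7-like cells of both libraries, and Sema3e was higher in muscle-like cells of both. For Edil3, St18 and Sh3rf3 the CP intervals of this ratio include no difference. The difference in order was not tested, since each library is 1 sample, and Sema3e made up most of the muscle-like sum of CP iMPCs.

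**Figure D2:**
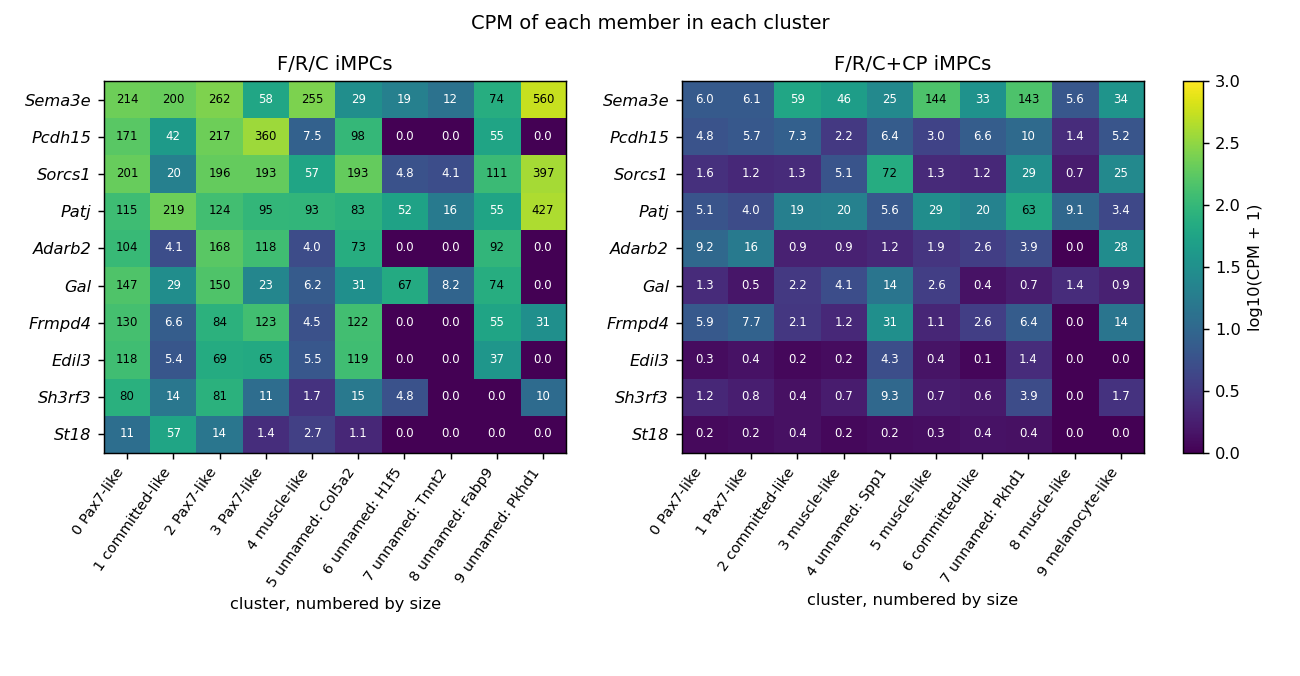
CPM of each member (rows, ordered by the F/R/C level of the library) in each cluster (columns) of both libraries, on a shared log10(CPM + 1) colour scale with the CPM printed in each cell. In F/R/C iMPCs most rows are bright in Pax7-like clusters 0, 2 and 3 and in the collagen-led cluster 5. In CP iMPCs the brightest cells are Sema3e in clusters 5 and 7 (144 and 143 CPM) and Sorcs1 in the Spp1-led cluster 4 (71.6 CPM).

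Among the surface and matrix genes, Edil3 was at 87.0 CPM in Pax7-like F/R/C cells (82.5 to 91.7), 5.37 in committed-like (3.62 to 7.67) and 5.49 in muscle-like cells (3.44 to 8.31). The collagen-led cluster held it at 118.7 CPM (103.2 to 135.9). Pax7-like and collagen-led cells together thus held nearly all of its counts, 84.0% and 12.8%. In CP iMPCs the library held 179 Edil3 UMIs, and 107 of them were in the Spp1-led cluster, at 4.32 CPM (3.54 to 5.22) against 0.332 in Pax7-like, 0.154 in committed-like and 0.289 in muscle-like cells.

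Pcdh15 was at 236.7 CPM in Pax7-like F/R/C cells (229.2 to 244.4), 42.2 in committed-like and 7.49 in muscle-like cells. It was highest in the low-Cdkn1c cluster 3, at 359.5 CPM, with 171.4 and 216.8 in clusters 0 and 2. In CP iMPCs the level was 5.31 CPM in Pax7-like, 7.07 in committed-like, 2.39 in muscle-like and 6.42 in Spp1-led cells. Pax7-like cells were thus still above muscle-like cells there, but not above committed-like cells. Of thinned CP cells, 0.949% of Pax7-like, 1.45% of committed-like and 0.494% of muscle-like cells had a Pcdh15 UMI, at median depths of 20195, 23040 and 33955 UMIs before thinning. These shares are too low to place Pcdh15 in a state.

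Sorcs1 was at 197.2 CPM in Pax7-like F/R/C cells (190.4 to 204.2) and 192.7 in the collagen-led cluster (172.8 to 214.3), and these intervals overlap. It was at 19.5 CPM in committed-like and 57.4 in muscle-like cells, and at 396.8 CPM in cluster 9, which rests on 39 UMIs in 68 shallow cells. In CP iMPCs the Spp1-led cluster held 1772 of 2407 Sorcs1 UMIs, which is 73.6%, while it held 9.12% of all UMIs. The level there was 71.6 CPM (68.3 to 75.0), against 1.38 in Pax7-like (1.17 to 1.61) and 3.94 in muscle-like cells (3.50 to 4.41). The melanocyte-like cells held 29 UMIs, between 16.7 and 35.8 CPM. Sorcs1 was therefore low in the library mainly outside 1 cluster.

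Of the secreted factors, Gal was at 115.5 CPM in Pax7-like F/R/C cells (110.3 to 120.9), 28.8 in committed-like and 6.24 in muscle-like cells (4.04 to 9.21). Among Pax7-like clusters it stood at 147.2 and 149.9 CPM in clusters 0 and 2 and 22.6 CPM in cluster 3. In CP iMPCs it was at 0.855 CPM in Pax7-like cells (0.694 to 1.04), 1.65 in committed-like, 3.59 in muscle-like (3.18 to 4.05) and 13.6 in Spp1-led cells (12.2 to 15.1). The intervals of muscle-like cells in the 2 libraries thus met at their ends, whereas in Pax7-like cells the levels differed 135-fold. A single CP cell held 95 Gal UMIs, and only muscle-like cluster 3 (216 UMIs) and the Spp1-led cluster (336 UMIs) hold that many. Either the muscle-like or the Spp1-led level of CP iMPCs therefore rests partly on this cell, as do ratios that use that level. The counting intervals do not cover this.

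Sema3e was spread over the 3 named F/R/C states, and Pax7-like cells held its lowest level of these states in both libraries, though the F/R/C intervals of Pax7-like and committed-like cells overlapped. Its level in F/R/C iMPCs was 190.3 CPM in Pax7-like (183.5 to 197.2), 200.3 in committed-like (188.8 to 212.4) and 255.3 in muscle-like cells (239.9 to 271.4). It was lowest among the larger clusters in the collagen-led one (29.4 CPM) and in the low-Cdkn1c cluster 3 (58.0 CPM). The other Pax7-like F/R/C clusters, 0 and 2, held it at 214.1 and 262.2 CPM, above the committed-like level. The lower pooled Pax7-like level in F/R/C iMPCs thus rests on cluster 3. In CP iMPCs it was at 6.07 CPM in Pax7-like cells (5.63 to 6.54), 51.0 in committed-like (49.1 to 53.0) and 72.9 in muscle-like cells (71.0 to 74.9). Muscle-like cluster 5, led by Sln and Il17b, held it at 144 CPM and cluster 7 at 143 CPM. The muscle-like level in CP iMPCs was 12.0-fold that of Pax7-like cells, and in F/R/C iMPCs it was 1.34-fold.

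Of the 2 nuclear proteins, Adarb2 was the member most restricted to Pax7-like F/R/C cells, which held 92.3% of its counts, at 130.5 CPM (125.0 to 136.3) against 4.12 in committed-like and 3.99 in muscle-like cells. The same order was present in CP iMPCs at a lower level, with 12.9 CPM in Pax7-like (12.3 to 13.6), 1.40 in committed-like and 1.13 in muscle-like cells, and 86.5% of the counts in Pax7-like cells. The Spp1-led cluster, where Edil3, Sorcs1 and Gal remained, held Adarb2 at only 1.17 CPM (0.785 to 1.68). The melanocyte-like cells held it at 27.5 CPM (18.8 to 38.9, 32 UMIs).

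St18 was the single member held mainly by committed-like F/R/C cells, with 320 of 486 UMIs there (65.8%). It was at 57.3 CPM in these cells (51.2 to 63.9), 9.63 in Pax7-like (8.17 to 11.3) and 2.75 in muscle-like cells (1.37 to 4.91). Within Pax7-like cells the low-Cdkn1c cluster 3 held 6 UMIs, at 1.44 CPM, against 11.3 and 13.9 CPM in clusters 0 and 2. In CP iMPCs 65 UMIs were left in 60 cells, at 0.218 CPM in Pax7-like, 0.365 in committed-like and 0.184 in muscle-like cells, from 25, 19 and 14 UMIs with overlapping intervals. A state that held St18 could not be made out there at this depth.

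The scaffold genes fell into different patterns. Frmpd4 was at 112.1 CPM in Pax7-like F/R/C cells (107.0 to 117.5) and 121.5 in the collagen-led cluster, and at 6.62 and 4.49 CPM in committed-like and muscle-like cells. In CP iMPCs it kept this order, with 6.94 CPM in Pax7-like (6.46 to 7.44), 2.25 in committed-like, 1.17 in muscle-like and 30.6 in Spp1-led cells (28.4 to 32.8). Sh3rf3 was at 62.1 CPM in Pax7-like, 14.3 in committed-like and 1.75 in muscle-like F/R/C cells, the last on 7 UMIs. In CP iMPCs 231 of its 425 UMIs were in the Spp1-led cluster, at 9.33 CPM (8.17 to 10.6), against 0.934 in Pax7-like cells.

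Patj was spread over the F/R/C states and, of the 3 named ones, highest in committed-like cells, at 219.1 CPM (207.0 to 231.8), with 113.0 in Pax7-like (107.8 to 118.4), 93.3 in muscle-like and 83.1 in collagen-led cells. Cluster 9 held it at 427.4 CPM (308.0 to 577.7), on 42 UMIs. In CP iMPCs the levels in committed-like (19.4 CPM, 18.2 to 20.6) and muscle-like cells (22.3 CPM, 21.2 to 23.4) were above that of Pax7-like cells (4.49 CPM, 4.11 to 4.90). Cluster 7 held it at 63.0 CPM (54.0 to 73.0). Committed-like and muscle-like cells held 28.5% and 47.9% of the Patj counts of CP iMPCs and 26.7% and 55.7% of the Sema3e counts, beside 19.2% and 28.0% of all UMIs. For St18 they held 29.2% and 21.5% of its 65 UMIs.

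The ratio of the libraries depended on the state for most members. In Pax7-like cells all 10 were at least 8-fold lower in CP iMPCs, against 2.66% of the 16512 genes with at least 10 counts there, with a median log2 ratio over the members of -5.47. In committed-like cells 6 of the 10 were, against 0.876% of 14961 genes, and the median was -3.71. In muscle-like cells 3 of the 10 were, namely Edil3, Sorcs1 and St18, against 0.412% of 15520 genes, and the median was -1.88. The libraries and genes are those of the selection, so these counts are no support for it.

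Edil3 showed the lowest ratio in Pax7-like cells, at -8.04 (-8.54 to -7.57), followed by Sorcs1 at -7.16 and Gal at -7.08 (-7.39 to -6.78). The Gal ratio in muscle-like cells was -0.80 (-1.39 to -0.14). The Sh3rf3 ratio in muscle-like cells was -1.35 (-2.50 to 0.03), an interval that includes no difference. Adarb2 had the smallest Pax7-like difference, with a ratio of -3.33 (-3.43 to -3.24), and St18 had its lowest ratio, -7.29 (-8.04 to -6.63), in committed-like cells, where F/R/C iMPCs held it. Sema3e stood at -4.97 in Pax7-like cells but -1.97 in committed-like and -1.81 in muscle-like cells.

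**Figure D3:**
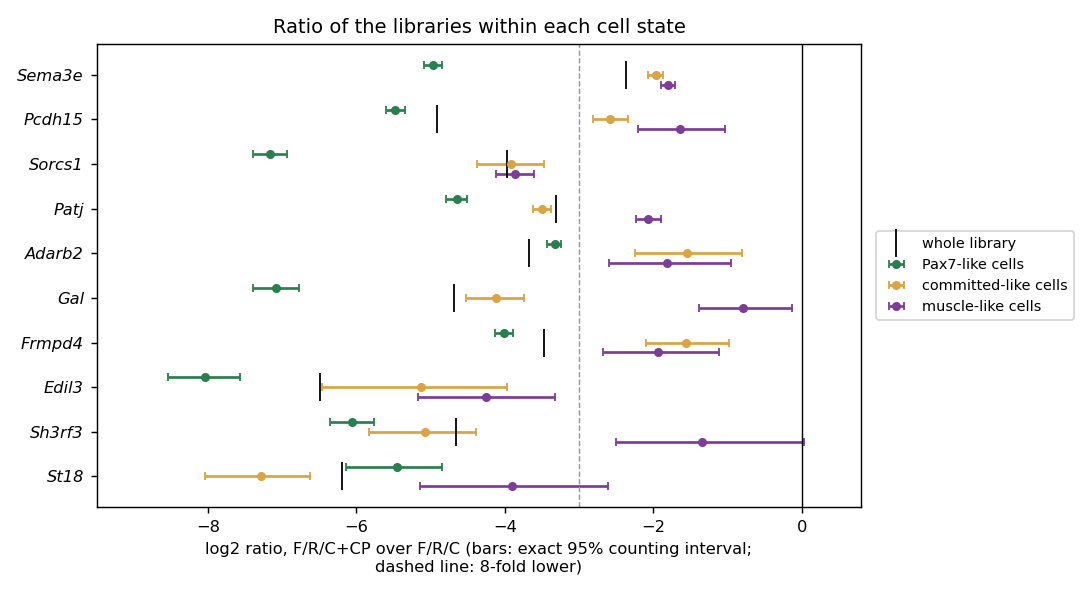
Log2 ratio of the libraries (CP iMPCs relative to F/R/C iMPCs) for each member within Pax7-like, committed-like and muscle-like cells, with exact 95% counting intervals, and the whole-library ratio as a black mark. Of the 3 states, the Pax7-like point lies farthest left for 9 of the 10 genes, and for St18 the committed-like point does, at -7.29. For Adarb2 the whole-library mark (-3.68) lies left of all 3 states.

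These ratios compare clusters that were rebuilt in each library. In CP iMPCs the Spp1-led cluster, which holds Pax7, lies outside the Pax7-like state, and 5 of the members are highest there. With this cluster and the F/R/C collagen-led cluster counted in, the median log2 ratio in Pax7-holding cells was -4.56 and all 10 genes were still at least 8-fold lower. The Sorcs1 ratio then moved from -7.16 to -3.83, that of Gal from -7.08 to -5.10 and that of Edil3 from -8.04 to -6.44. This pooling was chosen after the values were seen.

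The Spp1-led cluster also changed with the clustering. With the members left out of the clustering, its cells fell into a Pax7-like cluster of 1039 cells, 1020 of them from this cluster (Pax7 at 278.5 CPM, Myh11 at 4.75), and a cluster of 193 pericyte or smooth muscle-like cells (Pax7 at 69.2 CPM, Myh11 at 669.3). Edil3, Gal and Frmpd4 were in the former, at 5.05, 16.3 and 36.6 CPM against 1.23, 2.04 and 4.69 CPM in the latter. Sh3rf3 was the reverse, at 4.25 CPM (3.40 to 5.26) and 29.2 CPM (24.6 to 34.4), and Sorcs1 was high in both, at 59.5 and 118.4 CPM. Markers of smooth muscle therefore moved with the Sh3rf3 counts of this library. The Sorcs1 level was also higher in the smooth muscle-like cells, but more of its UMIs were in the Pax7-like cluster (1189 against 580). The part of these markers in the Sh3rf3 and Sorcs1 values was not tested. Myh11 in F/R/C iMPCs was at 0.241 and 0.597 CPM in the low-Cdkn1c and the other Pax7-like clusters, where both genes were held. The collagen-led F/R/C cluster held Myh11 at 27.1 CPM, with Sorcs1 at 192.7 and Sh3rf3 at 15.3 CPM.

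The Pax7-holding cluster with the least Cdkn1c was compared with the other Pax7-like clusters of its own library. For F/R/C iMPCs this was cluster 3, and 7 of the 10 genes were lower there beyond counting error, with Gal 6.56-fold lower (22.6 and 148.5 CPM), Sh3rf3 7.41-fold lower (10.8 and 80.2 CPM) and Sema3e 4.09-fold lower (58.0 and 237.2 CPM). Pcdh15 was 1.86-fold higher (359.5 and 193.1 CPM), Frmpd4 was 1.14-fold higher and Sorcs1 was at 193.0 and 198.7 CPM. In CP iMPCs it was the Spp1-led cluster 4, with Cdkn1c at 1044 CPM against 2132. There Sorcs1 was 51.9-fold higher (71.6 and 1.38 CPM), Gal 15.9-fold higher (13.6 and 0.855 CPM), Edil3 13.0-fold higher (4.32 and 0.332 CPM) and Sh3rf3 9.99-fold higher (9.33 and 0.934 CPM), while Adarb2 was 11.0-fold lower (1.17 and 12.9 CPM). The depth of Cdkn1c loss differed between the clusters, 46.0-fold and 2.04-fold, so they are not the same population by this gene. Clusters were formed from these same counts, so the intervals are no test.

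**Figure D4:**
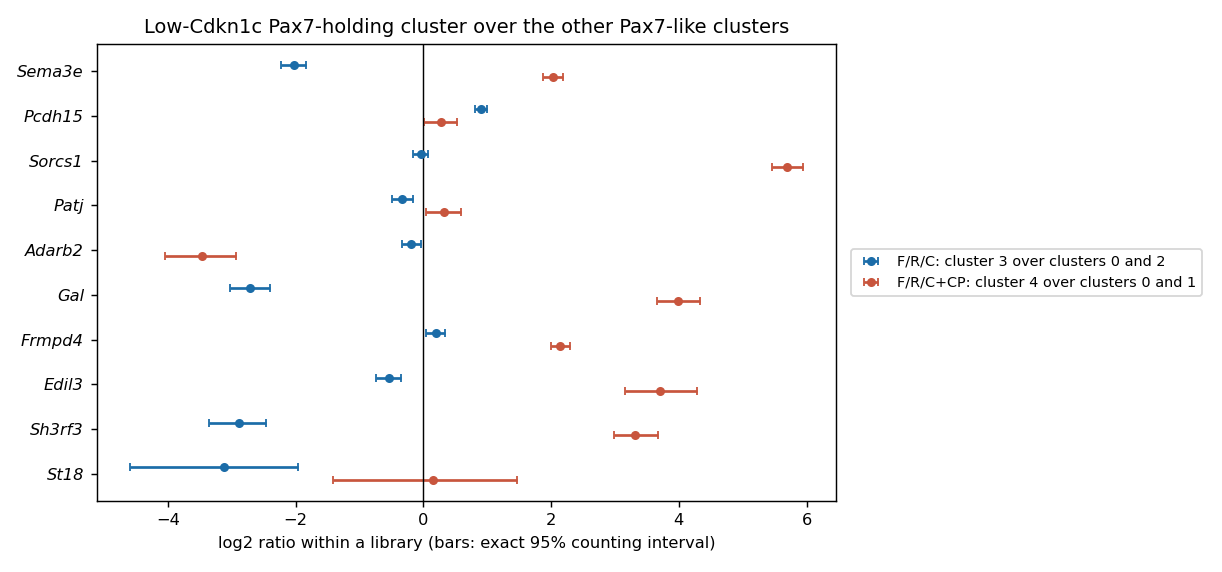
Log2 ratio of the low-Cdkn1c Pax7-holding cluster over the other Pax7-like clusters for each member, within F/R/C iMPCs (cluster 3 over 0 and 2) and within CP iMPCs (cluster 4 over 0 and 1), with exact 95% counting intervals. Gal lies at -2.71 and 3.99 and Sh3rf3 at -2.89 and 3.32, on opposite sides of 0.

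Some F/R/C cells held UMIs of several members. Of 2125 thinned Pax7-like F/R/C cells, 74.7% held a UMI of at least 1 member (72.8 to 76.5), 43.8% of at least 2 and 21.1% of at least 3, with a maximum of 8. The separate shares of the 10 genes in these cells, taken as independent, would give 81.4%, 46.7% and 18.3%. These lie outside the observed intervals. Fewer cells than that held at least 1 or at least 2 (41.6 to 45.9), and more held at least 3 (19.4 to 22.9). The share with at least 3 was 10.7% of collagen-led, 5.39% of committed-like and 1.69% of muscle-like cells. In CP iMPCs, 12.2% of 10834 cells held at least 1 member (11.6 to 12.8), 0.960% at least 2 (0.785 to 1.16) and 3 cells in all held 3. Independent shares over all CP cells would give 12.5% with at least 1 and 0.624% with at least 2. The share with at least 1 was highest in cluster 7 (44.4%, 35.4 to 53.5), then in the Spp1-led cluster (21.0%), muscle-like (18.7%), committed-like (13.0%) and melanocyte-like cells (11.9%), and lowest in Pax7-like cells (6.59%, 5.93 to 7.29).

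**Figure D5:**
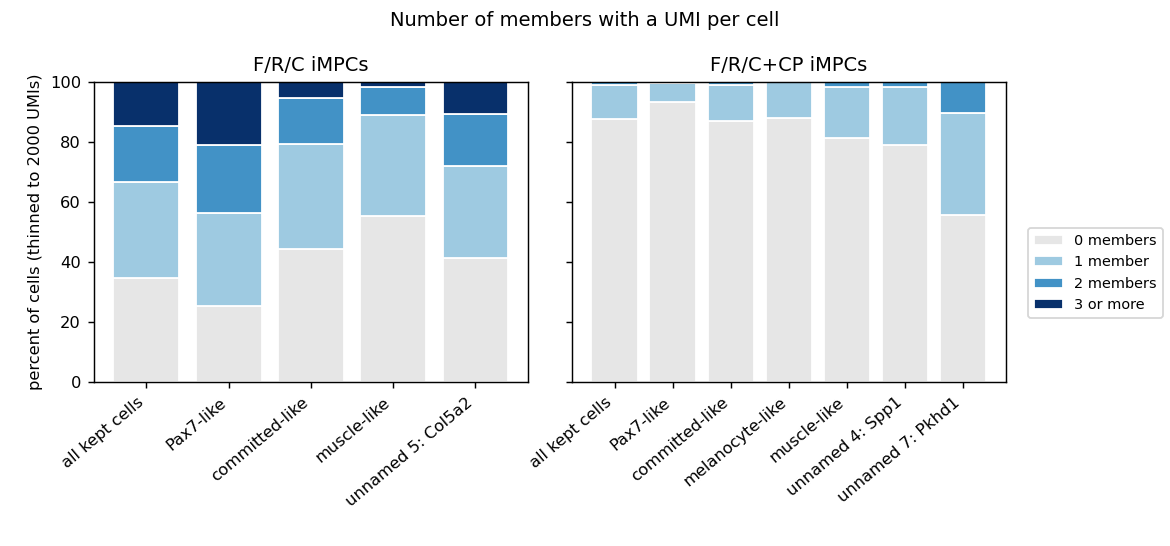
Percent of cells with a UMI of 0, 1, 2 or at least 3 members after thinning each cell to 2000 UMIs, by state and library, for states of at least 50 thinned cells. Cells with 3 or more members make up 21.1% of Pax7-like F/R/C cells and no visible part of any CP state.

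Over the 10 F/R/C clusters some members had much alike levels, given as a description because clusters share a library and differ in depth. Edil3 and Adarb2 (Pearson r = 0.96), Pcdh15 and Adarb2 (0.93), Edil3 and Pcdh15 (0.92) and Edil3 and Frmpd4 (0.90) were the closest pairs. Sema3e and Patj were alike at 0.85, and Gal and Patj the least alike at -0.18. The non-member genes most like each member included Cdh6 for Adarb2 (0.98), Pcdh17 for Edil3 (0.98), Nkain3 for Pcdh15 (0.98), Snx18 for Sorcs1 (0.99), Vat1l for Frmpd4 (0.99) and Car9 for Gal (0.96). Of the 30 genes most like a member, 3 for each, 24 were lower in CP iMPCs, as were 66.6% of the 6205 other genes at 20 CPM or more in F/R/C iMPCs. Their median log2 ratio was -0.78 against -0.20, and 2 of the 30 (6.67%) were at least 8-fold lower, against 0.532%. The single genes ranged widely. Cdh6, a cadherin, was higher in CP iMPCs (30.7 and 110.1 CPM, log2 ratio 1.84), and Pcdh17 stood at 37.1 and 39.8 CPM. The 2 that were at least 8-fold lower were Car9 for Gal (-3.19) and the cell cycle kinase gene Cdk6 for Sh3rf3 (93.0 and 3.09 CPM, -4.91), and the next was Socs2, a feedback inhibitor of JAK signalling, for Sh3rf3 (69.7 and 10.7 CPM, -2.70).

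Relatives and partners of the members were taken from lists. Of 80 genes in 12 lists, 73 had enough counts, 47 were lower and 26 higher in CP iMPCs (64.4% lower, against 58.2% of all 17999 genes), and 2 were at least 8-fold lower (2.74%, against 1.49%). These were Sorcs3 and Galr2, a galanin receptor gene at 0.646 and 0.0442 CPM (18 and 12 UMIs, log2 ratio -3.87). The median log2 ratio of the 73 genes was -0.23, beside -0.13 over all 17999 genes. For the 58.2% and the -0.13, a count of 0 was set to 3 counts, which scores some genes without an F/R/C UMI as lower. Protocadherins other than Pcdh15 were likewise highest in Pax7-like F/R/C cells among the 3 named states, and differed less, with Pcdh7 at 538.8 and 325.1 CPM, Pcdh9 at 182.4 and 58.2 CPM and Pcdh17 as above. Of the VPS10 receptors, Sorcs2 was at 153.3 and 97.2 CPM and the sortilin gene Sort1 at 15.9 and 27.6 CPM, while Sorcs3 was at 6.79 and 0.118 CPM, a log2 ratio of -5.85.

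The 6 other class 3 semaphorins differed less than Sema3e, with 3 lower and 3 higher in CP iMPCs. The lowest ratio was that of Sema3g, at 1.87 and 0.689 CPM (log2 ratio -1.44, -1.89 to -0.97). Sema3a was at 142.2 and 73.9 CPM, Sema3c at 13.4 and 23.0 CPM and Sema3d at 20.5 and 27.8 CPM. The 7 semaphorin receptor genes had a median log2 ratio of -0.80, with 5 intervals below 0 and 2, those of Plxna2 and Plxna4, that include 0. Plxnd1, the receptor of Sema3e, had a log2 ratio of -1.69, with 25.2 CPM in Pax7-like F/R/C cells and 6.92 CPM in Pax7-like CP cells. Of the others, Nrp2 was at 4.09 and 0.512 CPM, Nrp1 at 48.8 and 18.1 CPM and Plxna2 at 142.2 and 141.6 CPM. Partners of Patj such as the polarity gene Pard3 (190.3 and 158.3 CPM) and its paralog Mpdz (65.6 and 50.9 CPM), and partners of Frmpd4 such as Homer1 (39.6 and 44.2 CPM) and Dlg1 (123.7 and 94.5 CPM), differed less than 1.5-fold. Dlg4, which encodes PSD-95, was at 10.1 and 4.16 CPM (log2 ratio -1.27, -1.46 to -1.08). Sh3rf1, the closest listed relative of Sh3rf3, was at 39.2 and 18.5 CPM. No gene of the tip link, galanin receptor, RNA deaminase or Myt1 lists reached 20 CPM in either library. The tip link cadherin gene Cdh23, the partner of Pcdh15, was at 19.0 and 4.83 CPM (log2 ratio -1.98, -2.12 to -1.83). The tip link list as a whole did not follow it. Of its 8 measured genes, 3 were lower and 5 higher in CP iMPCs, with a median log2 ratio of 0.17. Ush1c was at 0.036 and 2.96 CPM, on 1 and 803 UMIs.

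Position on the chromosome was read from the order of genes in the RefSeq table of GRCm38.p6, since the files use GRCm39. The members lie on 7 chromosomes, with Edil3 and Adarb2 on 13, Pcdh15 and Sh3rf3 on 10, and Gal and Sorcs1 on 19. Of the 99 measured genes among the 5 nearest on each side, 68 were scored lower in CP iMPCs, against 58.2% of all 17999 genes. A count of 0 was set to 3 counts for both figures. Gm9745, 4933402N22Rik and Gm5861 had 13, 12 and 12 CP UMIs and none in F/R/C iMPCs, and were scored lower only for this reason. With the same setting, the median log2 ratio of the 99 genes was -0.31, beside -0.13 over all genes. At least 8-fold lower were 2 of the 99, against 1.49% of all genes. One was Sorcs3, next to Sorcs1 and given above, and the other was L1td1, next to Patj, on 7 and 5 UMIs. All 9 neighbours of Gal were lower, from -1.33 to -0.31, far less than Gal at -4.68. The lowest neighbour of Adarb2 was the transcription factor gene Klf6, at 74.6 and 12.6 CPM.

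A shared property of the members is length. By GENCODE M21 gene models on GRCm38, 9 of the 10 span 231.4 kb or more, from Sema3e to Pcdh15 (1550 kb) and Frmpd4 (1106 kb), whereas Gal spans 4.63 kb. Each of the 9 is longer than at least 93.9% of the 6209 genes at 20 CPM or more in F/R/C iMPCs. Long genes were on the whole somewhat lower in CP iMPCs, with a median log2 ratio of -0.59 for 253 genes of at least 300 kb, -0.40 for 896 genes of 100 to 300 kb and -0.10 for 1339 genes under 10 kb. Of the 253 longest, 14 were at least 8-fold lower (5.53%), against 0.660% of all 6209. The members make up 7 of the 14, and without them 7 of 246 long genes (2.85%) and 33 of all 6200 (0.532%) were at least 8-fold lower. The part of gene length in the low levels was not tested.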

How the data were processed

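Droplet single-cell RNA sequencing (10x 3' chemistry) of 2 libraries was analysed, 1 clone each, grouped by the sample labels. The deposited values are unnormalised UMI counts that the authors obtained by running Cell Ranger 7.0.0 against GRCm39. STARsolo and Seurat 4.2.1 are also named in the submitters' notes.

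Barcodes were filtered by the study's stated limits (250 to 4000 or 7000 genes, at most 15% mitochondrial and 40% ribosomal counts), which kept 3962 of 5541 and 10834 of 12000. Each library was clustered separately in Seurat 5.3.0 (2000 variable genes, 30 components, Louvain resolution 0.5). Clusters were named from marker lists, by a scoring rule set after the clusters were seen. Scrublet (scanpy 1.11.5) called 4 and 299 doublets, and none were removed in the reported values. Counts were summed per cluster and library, and ratios were given exact conditional intervals, checked on simulated data. Ratios cover genes with at least 10 counts over both groups compared. With 1 library per group no test was made, and intervals and floors cover counting error only.

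Members of the gene group and all gene lists were chosen with earlier results of these data known. For named genes the rule was: all members, their listed relatives at 20 CPM or more in either library, the 5 measured neighbours on each side and the 3 most alike genes, reported as counts with examples. Examples below 20 CPM were chosen after their values were seen. Alternatives changed the cells, scaling, depth, clustering and doublets.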

Additional observations from a re-analysis of the deposited data

Results flagged for a closer look

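For 5 members, the Pax7-holding cluster with the least Cdkn1c differed from the other Pax7-like clusters in opposite directions in the 2 libraries. The log2 ratio was -0.54 in F/R/C iMPCs and 3.70 in F/R/C+CP iMPCs for Edil3. It was -2.71 and 3.99 for Gal, and -2.89 and 3.32 for Sh3rf3. Sema3e stood at -2.03 and 2.03, and Patj at -0.33 and 0.32. Each library is a single sample, so the difference between them was not tested. Smooth muscle markers moved with the F/R/C+CP cluster (Myh11 at 136.2 CPM against 1.11 in the other clusters), and their part in these values was not tested. With the members left out of the clustering, a Pax7-like cluster of 1039 cells, 1020 of them from that cluster, held 326 Gal, 101 Edil3 and 85 Sh3rf3 UMIs, and the 193 smooth muscle-like cells held 10, 6 and 143.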

How the results depend on the processing

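The 10 log2 ratios kept their sign under every alternative run (90 values, 67 of them outside the counting interval). The median over the members was -4.31, and it was -3.87 in cells of the shared UMI range (190 cells without CP and 6213 with it), -5.47 in Pax7-like, -3.71 in committed-like and -1.88 in muscle-like cells. All deposited barcodes, median scaling, thinning, removal of high doublet scores and pooling of Pax7-holding clusters gave -4.06 to -4.56. In the shared UMI range Sema3e moved from -2.37 to -3.59 and Frmpd4 from -3.48 to -2.09. The number of members at least 8-fold lower was 9 wherever cells of all states were used (Frmpd4 in place of Sema3e was the exception in the shared range). It was 10 in Pax7-like cells and in pooled Pax7-holding clusters, 6 in committed-like and 3 in muscle-like cells. Of all genes, 269 were at least 8-fold lower, and 94 when 5 CPM in F/R/C iMPCs were required. The Pax7-like share of member counts in F/R/C iMPCs was 74.3% with members left out of the clustering and 73.5% (73.45) in cells of at least 1000 genes. In F/R/C+CP iMPCs this share of 20.4% depended on the clustering. It was 27.9% at resolution 0.8 and 34.7% with members left out, and 0% at resolution 0.3, where no cluster was named Pax7-like. No paired analysis was possible because the groups share only replicate number 1. Depth limits Edil3 and St18 in F/R/C+CP iMPCs, with 179 and 65 UMIs.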
